A study of Sus scrofa with 36 samples.

Results

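Circular RNAs (circRNAs) of the pig heart were compared between postnatal day 7 (P7) and day 28 (P28), with 6 animals at P7 and 5 at P28. A circRNA was kept when 3 or more of these 11 animals had 10 or more back-spliced reads of it, which left 1005 of the 32533 circRNAs seen in any of them, and 48111 were seen in any library of the series. At the edge of this rule, 258 circRNAs reached 10 reads in exactly 3 animals (median level 171 CPM, TMM-scaled counts per 1000000 back-spliced reads of an animal) and were kept, and 420 reached it in exactly 2 animals (median 124 CPM) and were not.

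A circRNA forms when a downstream splice donor is joined to an upstream splice acceptor, so that one or more exons close into a ring without a cap or a poly(A) tail. A read across that back-splice junction identifies the ring, and the ring is usually more stable than the linear transcript of the same gene because exonucleases find no free end. RNA-binding proteins such as QKI and the MBNL family can promote the ring by holding the flanking introns together, and circRNAs of large cardiac genes are abundant in heart muscle. Between the ages compared here the pig heart passes from the neonatal period, in which cardiomyocytes leave the cell cycle, to the juvenile heart.

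All animals were domestic Yorkshire pigs that were fed normally, and hearts were rinsed, frozen and extracted at P1, P3, P7 or P28, with no treatment or genotype named for any group. Hearts of 3 animals at each age went to Novogene, first as RNase R-treated circRNA libraries (nv1) and then as total RNA libraries from new samples of the same animals (nv2), and hearts of 3 other animals at each age went to CD Genomics as total RNA libraries (cd). The reads of both Novogene libraries of an animal were added together, which made each animal 1 replicate, and the company was a term of the main circRNA fits. The original work dropped a Novogene sample of P28 for its batch effect and does not name it. Both libraries of Novogene animal 1 of P28 were left out here, because its nv1 library held 1604 back-spliced reads, against 15730 to 65478 in the 5 other nv1 libraries used here, so 16 of the 36 libraries entered.

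The 11 animals had 8636 to 81532 back-spliced reads each, and the median count of a tested circRNA in an animal was 10, so many circRNAs were counted with large sampling error. A group of 3 cd libraries stood apart: in CD Genomics animal 6 of P7 and animals 5 and 6 of P28, 6.50% to 17.1% of the detected circRNAs had a single read, against 31.0% to 54.2% in the 13 other libraries. These 3 libraries held many reads on few circRNAs (26002 to 49042 reads on 3302 to 4307 circRNAs), and the counts of calls and the summary measures are given below with and without them. Without these 3 libraries all 16 circRNAs named below as circ-A to circ-P were still called in the same direction. This is largely set by the choice of the 16, which had the smallest p in a fit that holds the same other animals. Of all 91 circRNAs called in the 11 animals, 55 (60.4%) kept the call. The log2 fold change of circ-P was then -0.504, at the limit of 0.5, and those of circ-K, circ-L and circ-O moved toward 0 by 0.87 to 0.98.

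A circRNA was called when its unadjusted p was at most 0.05 and its log2 fold change (P28 minus P7) exceeded 0.5 in size, which are the thresholds the study used for its own comparisons. By this rule 91 of 1005 circRNAs (9.05%) were called, 55 higher at P28 (5.47%) and 36 lower (3.58%). Adjusted p values printed below beside a missing or lost call did not decide it, since the rule uses the unadjusted p. After Benjamini-Hochberg adjustment of edgeR's quasi-likelihood test over all 1005, 2 circRNAs (0.199%) had an adjusted p below 0.05, 1 lower and 1 higher at P28. Both of them passed the count filter only through the age at which they were higher, which fixes their direction. Over all 1005 circRNAs the median of the log2 fold changes was -0.01. The split between directions depended on the count filter: with the study's looser filter (3 or more counts in 10% or more of the animals), 455 of 5953 circRNAs were called, of which 149 were higher and 306 lower at P28.

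**Figure D1:**
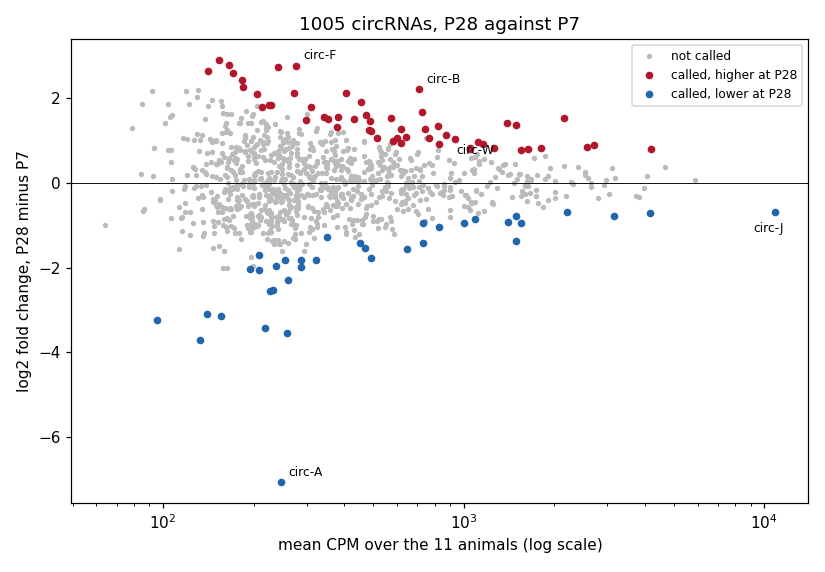
Each point is 1 of the 1005 tested circRNAs, with its mean level over the 11 animals in CPM on a log axis (x) and its log2 fold change, P28 minus P7 (y). Red points are the 55 circRNAs called higher and blue points the 36 called lower at P28. The circRNA circ-A lies alone at -7.06, and the most abundant circRNA, circ-J, lies at -0.68.

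In the account that follows, the 16 circRNAs with the smallest p among the called (8 in each direction) have the names circ-A to circ-P, and further abundant ones circ-Q to circ-V. Each is given by its back-splice positions on Sscrofa10.2, the build named in the submitters' notes, as the files give them. Host genes and sequences are not given, because the reference used here is of another build.

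The circRNA with the largest change had no read in the 5 P28 animals compared. It was circ-A, at chr1:265189346-265197520 on the plus strand with a span of 8174 bases. At P7 its level ran from 213 to 755 CPM with a median of 431 CPM, on counts of 19, 31 and 18 reads in the Novogene animals and 9, 2 and 14 reads in the CD Genomics animals. At P28 it had 0 reads in all 5 animals, so the ages did not overlap in either company. The left-out Novogene animal 1 of P28 had 1 read of it, in its nv2 library (82.0 CPM on 12664 reads), and with that animal kept the fitted log2 fold change was -5.57 (adjusted p = 0.00383) in place of -7.06. The adjusted p of circ-A without that animal was 0.00220 in edgeR, which tests a difference from 0. With the floor of 3 reads over these 5 P28 animals, the drop of circ-A was at least 25.8-fold. The same bound was 10.3-fold in the Novogene animals and 17.6-fold in the CD Genomics animals alone. Leaving out CD Genomics animal 5 of P28 gave the lowest bound, 18.4-fold. The RNase R-treated libraries held 52 reads of it at P7 and 0 at P28, and the nv2 libraries 16 and 0. At the earlier ages it was also present, at 203 ± 154 CPM at P1 and 195 ± 92.1 CPM at P3 (SD, n = 6 each). Its adjusted p stayed below 0.05 without any 1 animal (highest 0.0191), and was 0.154 in the CD Genomics animals alone.

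The other circRNA past the adjusted threshold was circ-B, at chr15:36377633-36400720 on the plus strand, which rose. Its P7 level ran from 72.1 to 587 CPM with a median of 258 CPM. At P28 it had 1739 and 298 CPM in Novogene animals 2 and 3 and 1449, 659 and 2011 CPM in CD Genomics animals 4, 5 and 6. Every P28 animal except Novogene animal 3, which had 8 reads, lay above every P7 animal. Its log2 fold change in all animals was 2.21 with an SE of 0.50 and an adjusted p of 0.0413, and it was 2.26 in the Novogene animals and 2.18 in the CD Genomics animals. The adjusted p was above 0.05 in 8 of the 11 fits that left out 1 animal, at 0.0612 to 0.373 and highest without Novogene animal 2 of P28 (log2 fold change 1.62), and without the 3 cd libraries that stood apart it was 0.0144. The earlier ages lay between, with 1139 ± 814 CPM at P1 and 664 ± 916 CPM at P3 (SD, n = 6 each), so the P7 level was the lowest of the means at the 4 ages.

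**Figure D2:**
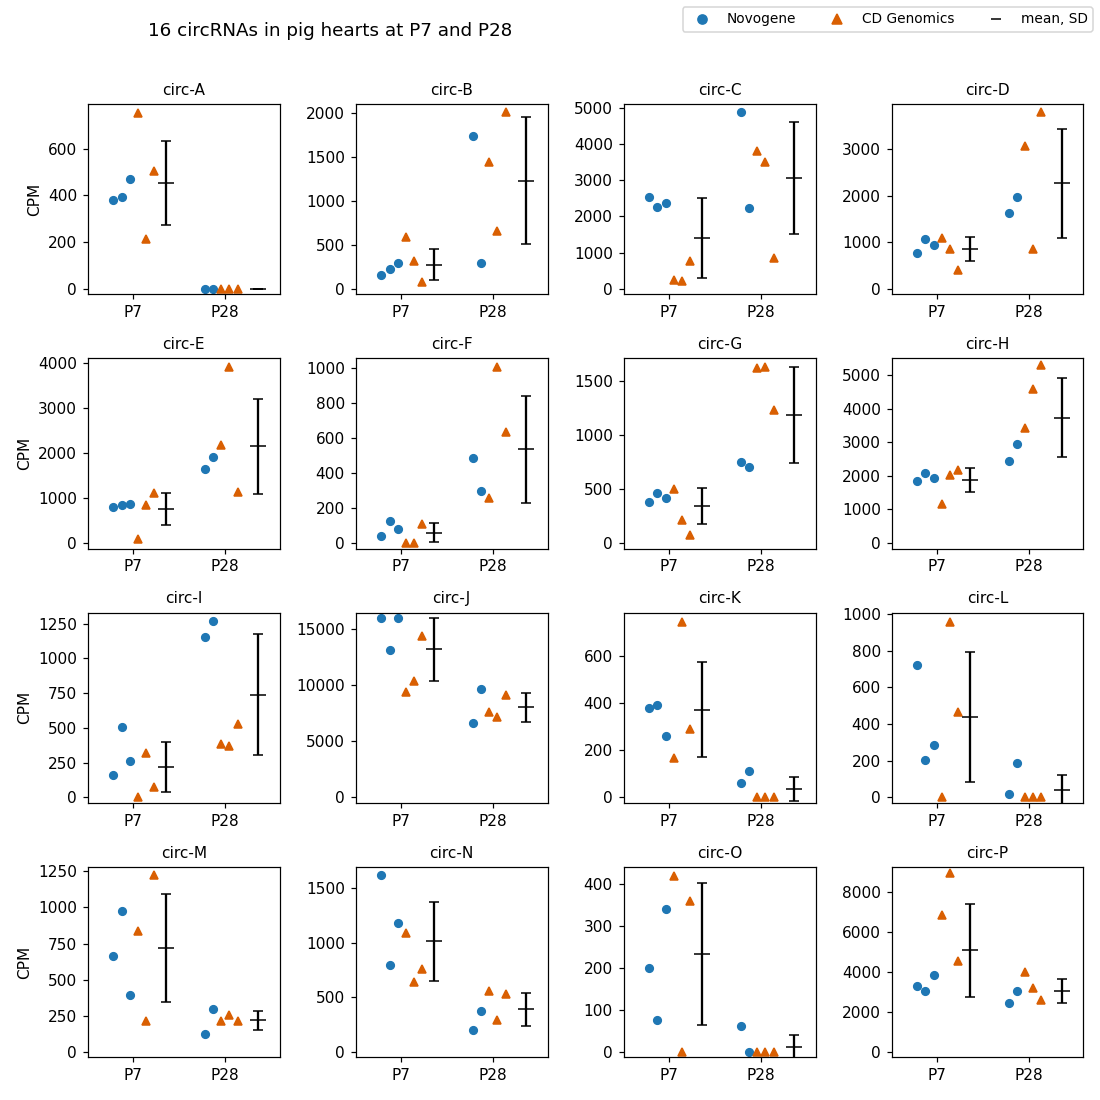
Each panel shows 1 called circRNA, circ-A to circ-P, with its level in CPM (y, from 0) in the 6 P7 and 5 P28 animals (x), with circles for Novogene and triangles for CD Genomics animals and the mean and SD at the right of each group. All 5 P28 animals lie above every P7 animal for circ-E, circ-F, circ-G and circ-H and below every P7 animal for circ-A, circ-K and circ-N.

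The 7 other named circRNAs on this side were called higher at P28, all with adjusted p values of 0.0994 to 0.114, so none of them passed the adjusted threshold. Of these, 4 did not overlap between the ages. Among all 1005 circRNAs, 14 (1.39%) did not overlap, and 13 of those 14 were among the 91 called (9 higher and 4 lower).

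The non-overlapping circRNA with the highest level was circ-H (chr3:49146845-49149851, plus strand). It ran from 1174 to 2163 CPM at P7 with a median of 1980 CPM. At P28 it was at 2427 and 2945 CPM in the Novogene animals and at 3409, 4574 and 5293 CPM in the CD Genomics animals. Every P28 value exceeded the highest P7 value, and the CD Genomics values were the highest. Its log2 fold change was 0.91 (SE 0.26), with 0.47 in the Novogene animals, where it was not called (adjusted p = 0.520), 1.29 in the CD Genomics animals and 0.70 without the 3 cd libraries that stood apart.

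The circRNA circ-E (chr1:143955136-143971028, minus strand) ran from 83.8 to 1118 CPM at P7 with a median of 850 CPM. It was at 1638 and 1901 CPM in the P28 Novogene animals and at 2173, 3915 and 1129 CPM in the P28 CD Genomics animals. The gap between the ages was narrow, since CD Genomics animal 6 of P28 lay just above CD Genomics animal 6 of P7. The log2 fold change of circ-E was 1.42 (SE 0.37). In both kinds of Novogene library it went up with age, from 632 to 1171 RPM (unscaled reads per 1000000 back-spliced reads) with RNase R and from 1385 to 2722 RPM without.

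The circRNA circ-G (chr9:149690286-149702797, minus strand) ran from 72.1 to 503 CPM at P7 with a median of 400 CPM. At P28 it was at 748 and 708 CPM in the Novogene animals and at 1619, 1628 and 1235 CPM in the CD Genomics animals. The ages were separated in both companies, by a smaller step in the Novogene animals. In these alone circ-G passed the limit of size, but its unadjusted p lay a little above 0.05. Its log2 fold change was 1.67 (SE 0.47), with 0.79 in the Novogene animals, where it was not called (adjusted p = 0.416), 2.62 in the CD Genomics animals and 1.21 without the 3 cd libraries that stood apart.

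Near the detection limit at P7 was circ-F (chr9:46262465-46272518, minus strand). No read was found in 2 P7 animals, the P7 median was 59.3 CPM and the highest P7 value 126 CPM. At P28 it was at 485 and 298 CPM in the Novogene animals and at 256, 1008 and 635 CPM in the CD Genomics animals, so the ages did not overlap. With 2.78 (SE 0.76), its log2 fold change was the largest of the named circRNAs that were higher at P28, and it was 2.49 without the 3 cd libraries that stood apart. Only 1 P7 animal reached 10 reads of it. The P1 and P3 means, 300 ± 147 and 359 ± 278 CPM (SD, n = 6 each), lay above the P7 mean of 58.9 ± 54.1 CPM on the scale of the 2 ages.

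The 3 remaining ones overlapped between the ages. For circ-C (chr5:105210065-105250420, minus strand) the P7 range was 213 to 2527 CPM with a median of 1504 CPM, and the P28 values were 4874 and 2237 CPM in Novogene and 3792, 3508 and 847 CPM in CD Genomics animals. The 3 P7 animals of Novogene were between 2250 and 2527 CPM and the 3 of CD Genomics between 213 and 757 CPM, so the companies differed at P7 more than at P28. In all animals circ-C had a log2 fold change of 1.54 (SE 0.39). It was 0.61 (adjusted p = 0.339) in the Novogene and 2.58 (adjusted p = 0.00549) in the CD Genomics animals. By the unadjusted p, circ-C met the thresholds of a call in each company alone.

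For circ-D (chr8:4258669-4260865, plus strand) the P7 range was 397 to 1090 CPM with a median of 897 CPM, and the P28 values were 1638, 1976, 3068, 853 and 3811 CPM. CD Genomics animal 5, which stood apart, was the only P28 animal within the P7 range. Its age difference was 1.38 (SE 0.36) on the log2 scale. For circ-I (chr10:30396526-30434042, minus strand) the P7 range was 0 to 506 CPM with a median of 211 CPM, and the P28 values were 1153 and 1267 CPM in Novogene and 383, 368 and 529 CPM in CD Genomics animals. On the log2 scale circ-I differed by 1.92 (SE 0.56), with the Novogene animals higher than the CD Genomics animals at P28. The call of circ-I was lost in the CD Genomics animals alone (1.79, adjusted p = 0.971) and without the nv2 libraries (1.52, adjusted p = 0.669). In the latter fit the change passed its limit and the unadjusted p lay a little above 0.05. The level of circ-I was 344 RPM in the RNase R-treated libraries and 1298 RPM in the nv2 libraries, while circ-D had 1328 and 634 RPM.

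Among those called lower at P28 stood the most abundant circRNA of the heart samples. This was circ-J, at chr2:61866061-61872040 on the plus strand. It ran from 9391 to 16009 CPM at P7 with a median of 13729 CPM, and was at 6674 and 9655 CPM in the Novogene and 7627, 7152 and 9139 CPM in the CD Genomics animals at P28. Of the 5 P28 animals 4 were below every P7 animal, and Novogene animal 3 lay just above the lowest P7 animal. In all animals the log2 fold change was -0.68 with an SE of 0.18 and an adjusted p of 0.0994, with -0.86 in Novogene and -0.52 in CD Genomics animals. The call of circ-J was lost in the CD Genomics animals alone (adjusted p = 0.759). There the change passed its limit and the unadjusted p lay a little above 0.05. Without a count filter, circ-J also lost the call in a fit of all circRNAs (-0.70, adjusted p = 0.665). At P1 and P3 its means were 12570.4 ± 1425 and 14506 ± 2663 CPM (SD, n = 6 each), close to the P7 level, and the P28 mean on that scale was 7853 CPM. Both kinds of Novogene library showed the lower level, with 13087 against 6950 RPM with RNase R and 17004 against 8594 without.

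A short and abundant circRNA, circ-P (chr11:266571-267124, minus strand, with a span of 553 bases), ran from 3072 to 8948 CPM at P7 with a median of 4194 CPM. At P28 it was at 2447, 3057, 4005, 3179 and 2576 CPM. The groups overlapped, and the highest P7 values were those of CD Genomics animals 4 and 5. The age difference was -0.71 on the log2 scale with an SE of 0.24 and an adjusted p of 0.212, with -0.29 in the Novogene animals, where circ-P was not called (adjusted p = 0.730), and -1.06 in the CD Genomics animals. Without a count filter it was not called either (-0.69, adjusted p = 0.665).

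Besides circ-A, 2 of the named circRNAs called lower at P28 did not overlap between the ages. The circRNA circ-N (chr9:8935965-8950452, minus strand) ran from 639 to 1625 CPM at P7 with a median of 943 CPM and was at 202, 373, 554, 291 and 529 CPM at P28. All P28 animals lay below the lowest P7 animal, and the log2 fold change was -1.42 (SE 0.45), with -2.10 in the Novogene animals (adjusted p = 0.00483) and -0.86 in the CD Genomics animals, where it was not called (adjusted p = 0.981). The circRNA circ-K (chr14:31377806-31384322, plus strand) ran from 168 to 746 CPM at P7 with a median of 335 CPM and was at 60.7 and 112 CPM in the P28 Novogene animals, with 3 reads each, and at 0 in the 3 CD Genomics animals. Its log2 estimate was -3.44 (SE 0.97), a fitted value that rests on 6 reads at P28 and was -2.57 without the 3 cd libraries that stood apart and -4.10 without Novogene animal 3 of P28.

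The last 3 named ones overlapped. The circRNA circ-M (chr11:20075965-20082683, plus strand) ran from 213 to 1226 CPM at P7 with a median of 750 CPM and was at 121, 298, 213, 252 and 212 CPM at P28, for a log2 fold change of -1.78 (SE 0.53) that was not called in the CD Genomics animals alone (-1.76, adjusted p = 0.785). In that fit the change passed its limit and the unadjusted p lay a little above 0.05. The P28 values of circ-M varied little, and CD Genomics animal 5 of P7, with 2 reads, was the P7 animal among them. The circRNA circ-L (chr16:78028006-78032631, plus strand) ran from 0 to 959 CPM at P7 with a median of 378 CPM and had 1, 5, 0, 0 and 0 reads in the P28 animals. The circRNA circ-O (chr14:53590429-53609301, plus strand) ran from 0 to 419 CPM at P7 with a median of 270 CPM and had 3 reads in 1 P28 animal. For both, 1 P7 animal of CD Genomics also had no read, and the fitted log2 fold changes were -3.56 (SE 1.02) for circ-L and -3.72 (SE 1.18) for circ-O. Without the 3 cd libraries that stood apart they were -2.64 and -2.74. They moved further without the single P28 animal that held most of the reads, to -5.48 for circ-L without Novogene animal 3 and to -6.17 for circ-O without Novogene animal 2. In the Novogene animals alone they were -2.15 and -2.30 and in the CD Genomics animals, with no read at P28, -6.62 and -5.76, so the size of these fitted values depends on a few reads.

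The nv1 and nv2 reads are the ones summed for the fit, so their direction for the 16 named circRNAs is largely set by the choice of those circRNAs. It was the direction of the fit for all 16 in the nv1 libraries and for 15 in the nv2 libraries, against 68.5% and 66.8% of all 1005 circRNAs. The exception was circ-L, with 3 nv2 reads at P7 and 2 at P28 (76.9 and 77.8 RPM). Of the 16, 6 had more RPM with RNase R than without.

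Most of the other abundant circRNAs were not called. Of the 8 with the highest mean CPM, circ-J and circ-P were called lower and circ-S (chr14:44169276-44175988, minus strand) was called higher. The level of circ-S ran from 2263 to 5084 CPM at P7 with a median of 2582 CPM and was at 7605, 3989, 2812, 6687 and 6245 CPM at P28, with a log2 fold change of 0.81 (SE 0.25) that became 0.52 and lost the call without Novogene animal 2 of P28. It was 1.30 in the Novogene animals (adjusted p = 0.00483) and 0.41 in the CD Genomics animals, where circ-S was not called (adjusted p = 0.971). The 5 that were not called had log2 fold changes of 0.07 (SE 0.21) for circ-Q (chr14:57846854-57848109, minus strand), 0.38 (SE 0.25) for circ-R (chr13:35647657-35658848, plus strand), 0.18 (SE 0.22) for circ-T (chr1:157816757-157823318, plus strand), -0.12 (SE 0.21) for circ-U (chr6:92170080-92179625, minus strand) and -0.32 (SE 0.24) for circ-V (chr1:62359383-62362228, plus strand). The steadiest was circ-U, whose P7 mean of 4125 ± 594 CPM (SD, n = 6) and P28 mean of 3837 ± 312 CPM (SD, n = 5) differed by less than the spread between animals. For circ-Q the Novogene animals lay above the CD Genomics animals at both ages, at 7260, 8722 and 8685 against 3522, 4261 and 2380 CPM at P7 and at 9263 and 11594 against 3622, 2966 and 2293 CPM at P28. Without CD Genomics animal 6 of P7 the estimate of circ-R was 0.68 and met the thresholds.

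Over all called circRNAs, the log2 fold changes ran from 0.77 to 2.91 for the 55 higher ones and from -0.67 to -7.06 for the 36 lower ones. Calls were more frequent among abundant circRNAs, at 16.7% of the 251 with the highest mean CPM and 4.37% of the 252 with the lowest, when the circRNAs were ranked by mean CPM and divided into 4 groups of equal size. The filter itself bears on the directions, since a circRNA that passed through 1 age was high at that age. Of the 399 circRNAs that reached 10 counts in 3 animals of each age, 31 were called higher and 14 lower (11.3%), while the 97 that passed through P28 alone gave 23 higher calls and no lower one, and the 231 that passed through P7 alone gave 21 lower calls and no higher one. Of the 16 named called circRNAs, 8 passed through 1 age alone, circ-B, circ-F and circ-I through P28 and circ-A, circ-K, circ-L, circ-M and circ-O through P7.

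By position, 91 called circRNAs lay in 85 loci, a locus being a group of circRNAs linked by a shared back-splice start or end on the same strand. Chromosome 8 held 12 of its 49 tested circRNAs among the called (24.5%, 5 higher and 7 lower, in 9 loci), chromosome 11 held 7 of 30 (23.3%), chromosome 13 held 4 of 90 (4.44%) and chromosome 12 none of 41. The share of all 1005 circRNAs was 9.05%, and the other chromosomes lay within this range, such as 17.0% on chromosome 5 and 2.44% on chromosome 7. These shares were not tested, since circRNAs of a locus are not independent.

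The genomic span of a circRNA, from its back-splice start to its end with the introns between, had different medians in the 2 directions, which were not tested. The 55 higher circRNAs had a median span of 12167 bases, the 36 lower ones 4449 bases and all tested ones 8386 bases. Among the 400 circRNAs spanning 10 to 50 kb, 31 were called higher and 11 lower with a median log2 fold change of 0.16. Among the 501 spanning 1 to 10 kb, 20 were higher and 18 lower with a median of -0.13, and among the 71 of up to 1 kb, 3 were higher and 7 lower with a median of -0.15. Among the 33 spanning over 50 kb, 1 was higher and none lower with a median of 0.05.

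The share of all back-spliced reads on circRNAs spanning over 10 kb was compared per animal, without the filter. It ran from 33.7% to 43.7% at P7 with a median between 40.8% and 41.7%, and was 44.4% and 43.2% in the Novogene and 40.7%, 48.0% and 45.4% in the CD Genomics animals at P28. The groups overlapped, and the lowest value was that of CD Genomics animal 5 of P7, the shallowest animal. The means were 40.3 ± 3.71% at P7 (SD, n = 6) and 44.3 ± 2.69% at P28 (SD, n = 5). The difference, taken within each company and averaged over both, was 3.99 percentage points (two-sided exact permutation of ages within companies, p = 0.06, adjusted over 3 measures 0.18), with 1.76 points in the Novogene and 6.21 points in the CD Genomics animals. Without CD Genomics animal 6 of P7 it was 5.16 points (p = 0.03 in the same exact test), and without the 3 cd libraries that stood apart it was 3.16 points (p = 0.2 in the same exact test).

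The number of different circRNAs and the share of the 10 most abundant ones did not differ between the ages beyond the spread between animals. When each animal was thinned to 8636 reads, the depth of the shallowest, 3645 ± 599 distinct circRNAs were expected at P7 (SD, n = 6) and 3316 ± 705 at P28 (n = 5), a difference within companies of -214 (exact permutation p = 0.165, adjusted 0.248). The difference was 36.0 in the other direction (exact permutation p = 0.833) without the 3 cd libraries that stood apart, and -344 (exact permutation p = 0.01) without CD Genomics animal 4 of P28. The 10 most abundant circRNAs of an animal took 5.62 ± 0.50% of its reads at P7 and 5.28 ± 0.52% at P28, a difference within companies of -0.29 points (exact permutation p = 0.39), and of -0.63 points without the 3 cd libraries that stood apart (exact permutation p = 0.5). For the 100 most abundant the difference had the other sign, 1.30 points (exact permutation p = 0.01). The smallest p that the 200 assignments allow is 0.005.

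**Figure D3:**
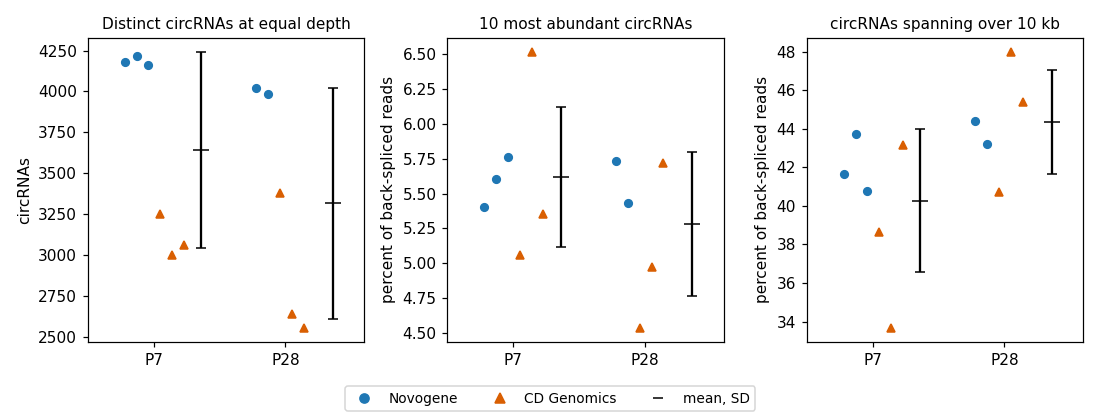
Per animal at P7 and P28 (x), the panels show the number of distinct circRNAs expected at 8636 reads, the percent of back-spliced reads on the 10 most abundant circRNAs and the percent on circRNAs spanning over 10 kb, with axes that do not start at 0. Circles are Novogene and triangles CD Genomics animals, with the mean and SD beside each group. The Novogene animals lie above all CD Genomics animals in the first panel at both ages, and the ages overlap in all 3 panels.

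Summing reads over a locus asks whether the circRNA output of a host region changed, whichever back-splice was used. Of 1177 loci tested, none passed the adjusted threshold in edgeR's quasi-likelihood test, and 112 had an unadjusted p below 0.05. By the thresholds for single circRNAs, 110 loci (9.35%) were called, 58 higher and 52 lower. The 3 cd libraries that stood apart bear on this count: without them 12 loci passed the adjusted threshold, 9 higher and 3 lower.

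In 6 loci, 2 circRNAs were called, and in 5 of these both went in the same direction. Locus-3 (chr8:116956977-117258527, plus strand, 27 circRNAs detected and 3 tested) had the smallest p of all loci, at 468 ± 262 CPM at P7 (SD, n = 6) and 1393 ± 235 CPM at P28 (n = 5), which is 1.63 on the log2 scale with an SE of 0.39 and an adjusted p of 0.0756. Its 3 tested circRNAs had log2 fold changes of 2.04, 1.84 and 2.14, and the last of these, at chr8:117220195-117258527, did not overlap between the ages (117 ± 125 CPM at P7 and 460 ± 111 CPM at P28, SD).

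Among the loci with 2 called circRNAs, locus-5 (chr8:33308375-33354941, plus strand) was the only one with both lower at P28. Its mean went from 1463 ± 198 CPM at P7 (SD, n = 6) to 532 ± 341 CPM at P28 (n = 5), which is -1.46 on the log2 scale with an SE of 0.37 and an adjusted p of 0.0756. Its 2 tested circRNAs share their end at position 33354941 and had log2 fold changes of -2.03 and -1.56. Locus-6 (chr9:11302177-11391169, plus strand) went from 1259 ± 204 to 2524 ± 885 CPM (0.90 on the log2 scale with an SE of 0.26 and an adjusted p of 0.116), and 2 of its 3 tested circRNAs, which share their start at position 11319663, were called higher, while the third, at chr9:11337233-11348456, had a log2 fold change of -0.22.

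In locus-4 (chr8:134336622-134477954, minus strand) and locus-1 (chr1:30877429-31009204, plus strand), circRNAs of one locus also had estimates on both sides of 0. The 4 tested circRNAs of locus-4 had log2 fold changes of 1.24, 1.34, -1.09 and -0.18, of which the first and second were called. The 3 of locus-1 had 1.00, -0.76 and 1.46, of which the first and the last were called. In locus-2 (chr14:57581679-57935212, minus strand), the locus with the most circRNAs (281 detected and 18 tested, circ-Q among them), 1 circRNA was called higher (chr14:57705293-57732025, log2 fold change 1.79) and 1 lower (chr14:57783563-57784425, log2 fold change -0.96), while the sum over the locus moved by 0.17 (SE 0.13).

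The loci of circ-B and circ-C held several tested circRNAs as well. In locus-7, where 3 tested circRNAs share the start at position 36377633 of chromosome 15, circ-B had a log2 fold change of 2.21 and the others -0.19 and 0.56. In locus-8 all 6 tested circRNAs had estimates above 0, from 0.38 to 1.54, and circ-C was the only one called.

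Whether a circRNA changed relative to the other circRNAs of its locus was tested for 476 circRNAs in 176 loci. None passed the adjusted threshold (edgeR's diffSpliceDGE), and 11 had an unadjusted p below 0.05, with circ-B the smallest (adjusted p = 0.997).

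**Figure D4:**
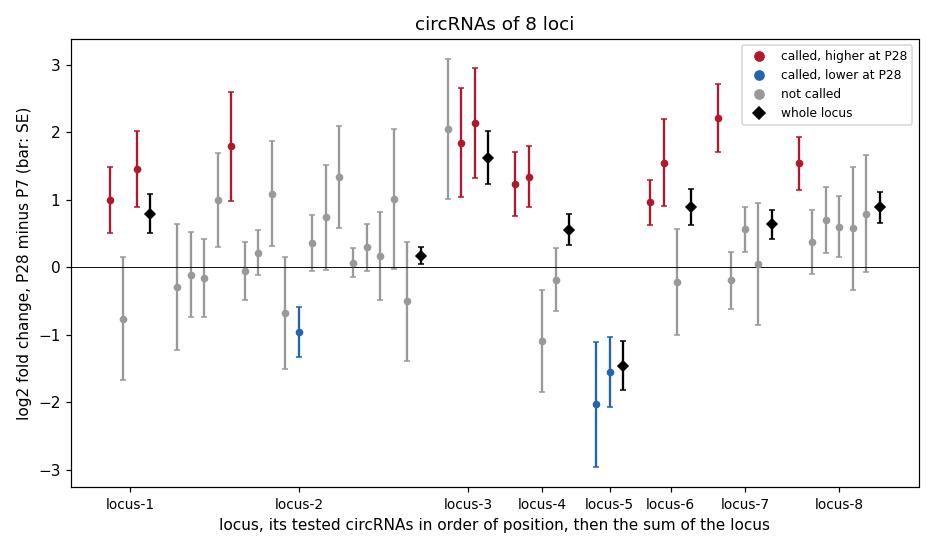
For 8 loci (x), circles give the log2 fold change, P28 minus P7 (y), of each tested circRNA with its SE, in order of position, and the black diamond the sum over the locus. Locus-1 to locus-6 hold 2 called circRNAs each, locus-7 holds circ-B (2.21) and locus-8 holds circ-C (1.54). Both circRNAs of locus-5 lie below 0 and all those of locus-3 and locus-8 above it.

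The 2 companies sequenced different animals and so gave separate estimates of the age difference. Across the 1005 circRNAs the log2 fold changes of the 5 Novogene and the 6 CD Genomics animals correlated weakly (Pearson r = 0.26, Spearman rho = 0.26, across circRNAs, which are not independent), and 60.7% had the same sign. Fitted alone, 133 circRNAs (13.2% of 1005) were called in the Novogene animals and 69 (6.87%) in the CD Genomics animals. They shared 20 circRNAs, which is 15.0% of the Novogene and 29.0% of the CD Genomics calls, and 17 of the 20 went in the same direction. Of the 91 called in all animals, 88 had the same sign in both companies, although the joint fit favours such circRNAs.

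Without the 3 cd libraries that stood apart, 109 circRNAs were called (64 higher and 45 lower), of which 55 were also among the 91, all in the same direction. The adjusted threshold was then passed by 9, and all 9 were among the 91. These were circ-A to circ-E, circ-I and 3 circRNAs that were singled out after their values were seen. Of these 3, 2 were higher at P28. That at chr4:136390668-136412978 on the minus strand had a log2 fold change of 2.19 and of 1.504 in all 11 animals, with 2.88 in the Novogene and 0.38 in the CD Genomics animals. That at chr5:99055436-99062303 on the minus strand had 1.71 and 0.93, and the companies differed in sign, with 2.38 in the Novogene and -0.38 in the CD Genomics animals. The last was lower, at chr1:117494796-117498416 on the plus strand, with -6.75 and -2.28, and with -7.22 in the Novogene and -1.12 in the CD Genomics animals.

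**Figure D5:**
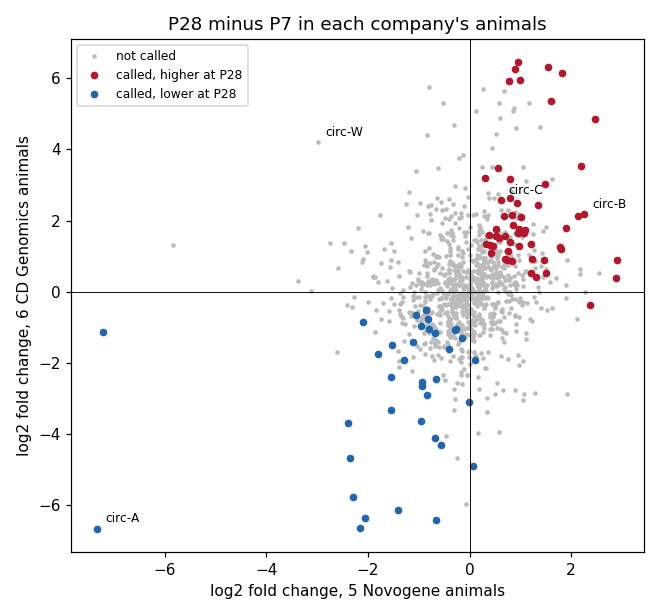
Each point is 1 of the 1005 tested circRNAs, with its log2 fold change (P28 minus P7) in the 5 Novogene animals (x) and in the 6 CD Genomics animals (y). Red points are the circRNAs called higher and blue points those called lower in all 11 animals. The circRNAs circ-A and circ-B lie at like values in both, and circ-W lies at -2.99 in Novogene and 4.21 in CD Genomics animals.

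One circRNA differed between the companies in its age difference (0.0995% of 1005, interaction test in edgeR, and 48 had an unadjusted p below 0.05). The circRNA circ-W (chr7:20415576-20423283, plus strand) had 100, 121 and 60 reads in the P7 Novogene animals and 0, 0 and 4 reads in the P7 CD Genomics animals. At P28 it had 16 and 1 reads in the Novogene animals and 50, 49 and 32 reads in the CD Genomics animals. The order of the ages was thus opposite in the 2 companies, with log2 fold changes of -2.99 and 4.21. The left-out Novogene animal 1 of P28 had 13 reads of it (1027 RPM). The Novogene animals used were at 314 and 36.1 RPM at P28, and the CD Genomics animals at 999 to 2135 RPM. At P1 the levels of the companies overlapped, at 253 to 1491 RPM in Novogene and 824 to 1126 RPM in CD Genomics animals. The company and the animals cannot be told apart here.

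Gene counts of the same cd hearts were available for 9815 genes, on chromosomes 1, 2, 6 and 13, and gave the setting of the circRNA changes. Of 5526 genes tested in the 3 P7 and 3 P28 libraries, with the 12 cd libraries in 1 fit, 1040 (18.8%) had an adjusted p below 0.05, 461 higher (8.34%) and 579 lower (10.5%) at P28. The count depended on the libraries in the fit, with 1681 genes (799 higher and 882 lower) from the 6 libraries of the 2 ages alone and 576 to 734 without any 1 of these 6 (647 and 576 without CD Genomics animals 4 and 5 of P7, and 675 and 667 without animals 5 and 6 of P28). Cardiac identity was clear at both ages, with the 9 measured cardiomyocyte markers adding up to 77763 to 87676 CPM at P7 and 96758 to 109500 CPM at P28.

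Of 14 measured factors of circRNA formation and decay, 1 rose and none fell (median log2 fold change 0.08, and 0.01 over all genes), beside the 8.34% of all genes that rose and the 10.5% that fell. MBNL1, a splicing regulator that can promote circularisation, was at 506, 511 and 565 CPM at P7 and at 840, 696 and 725 CPM at P28, which is 0.51 on the log2 scale with an SE of 0.13 and an adjusted p of 0.0145 in edgeR. The P28 libraries were all higher than the P7 libraries. QKI, which binds introns beside circularised exons, had 2226 ± 81.8 CPM at P7 and 2962 ± 123 CPM at P28 (SD, n = 3 each), which did not pass the test (log2 fold change 0.41, adjusted p = 0.0836, edgeR).

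Markers of cell types moved as well, beside the 8.34% of all genes that rose and the 10.5% that fell. Of the 9 cardiomyocyte markers, 4 rose, among them CKM, muscle creatine kinase (log2 fold change 1.36), and TNNI3, the adult cardiac troponin I (0.71), and none fell past the adjusted threshold. NPPB, a natriuretic peptide, had the largest estimate of the 9, 2.86, without passing (adjusted p = 0.0770 in edgeR). It was at 95.9 to 156 CPM at P7 and at 603 to 1326 CPM at P28. ACTC1, cardiac actin, had the other sign (-0.50, adjusted p = 0.0600 in edgeR), at 18774 to 23233 CPM at P7 and 11003 to 18102 CPM at P28, which did not overlap. TPM1 also had the other sign, at -0.11. Both measured fibroblast markers fell, FBN1, the microfibril protein fibrillin, by 1.88 and TCF21, a fibroblast transcription factor, by 0.74 on the log2 scale, and their summed level went from 3663 to 4231 CPM at P7 to 972 to 1214 CPM at P28. Of 6 endothelial markers, 2 fell (TIE1 by 0.71 and ERG by 0.50 on the log2 scale), with sums of 995 to 1330 CPM at P7 and 899 to 955 CPM at P28. TEK, an endothelial receptor, had the other sign (0.43, adjusted p = 0.0645 in edgeR), at 210 to 241 CPM at P7 and 270.3 to 352 CPM at P28, which did not overlap. The only tested members of the smooth muscle and pericyte list were NOTCH3 and PDGFRB, and those of the leukocyte and red cell list CD14 and CSF1R. No member of either pair passed edgeR's adjusted threshold (0 and 2 of them had an unadjusted p below 0.05). Their sums were 357 to 552 against 209 to 458 CPM and 129 to 136 against 174 to 242 CPM. MS4A1, a B cell marker, was listed but too low to test. No red cell gene and none of ACTA2, MYH11, TAGLN and CNN1 was among the measured genes. In whole tissue, fewer cells of a type and less RNA per cell cannot be told apart, and the part of these shifts in the circRNA differences was not tested.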

How the data were processed

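The authors aligned reads to Sscrofa10.2 with STAR 2.7.9a and identified back-splices with CIRCexplorer2, and they deposited raw back-spliced read counts per circRNA in 3 tables (nv1, nv2 and cd) and gene counts for cd. The tables were joined on position and strand, and nv1 and nv2 counts of an animal were summed. Columns of cd carry numbers 4 to 6, which were matched to an age and not to a single sample title. The coordinate base of the starts was not converted. The miRNA table was not used here.

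Counts were tested in edgeR 4.0.16 (R 4.3.3) with the quasi-likelihood test, TMM factors, library sizes from all back-spliced reads of an animal, and company as a covariate in the main circRNA fits. Circular RNAs needed 10 counts in 3 animals and genes 10 counts in 3 libraries, and p-values were adjusted by Benjamini-Hochberg over all features tested. CPM are counts per 1000000 of TMM-scaled library size, and RPM are unscaled. Summary measures were compared by exact permutation of ages within companies. Scripts were tested on simulated data.

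Named circRNAs were those with an adjusted p below 0.05, then the smallest p among the called until 8 per direction were named and the 8 most abundant. Named genes were members of lists of circRNA factors and cell type markers with an adjusted p below 0.05. QKI, ACTC1, TPM1, NPPB, TEK, NOTCH3, PDGFRB, CD14, CSF1R, circ-W and locus examples, chosen after their values were seen, were added. The members and lists were chosen with earlier results of these data known. P-values measure the spread between these animals. The 16 libraries held no identical pair. PCR duplicates could not be removed from counts, so floors cover counting error only. Alternatives covered filters, normalization, DESeq2 1.42.0, limma 3.58.1 voom, companies apart, library kinds apart and animals left out.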

Additional observations from a re-analysis of the deposited data

Results flagged for a closer look

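In 52 groups of 5 or 6 animals (46 of the 23 named circRNAs and 6 of the 3 summary measures), 4 held 1 animal far from the others, where chance gives about 1 in 20 groups. CD Genomics animal 4 of P7 had 83.8 CPM of circ-E, on 1 read, against 802 to 1118 CPM in the 5 other P7 animals. The same animal had 1174 CPM of circ-H against 1845 to 2163 CPM. Novogene animal 3 of P28 had 186 CPM of circ-L, on 5 reads, against 0 to 20.2 CPM in the others. Novogene animal 2 of P28 had 60.7 CPM of circ-O, on 3 reads, against 0 in the 4 others.

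The age difference of circ-W differed between the companies by 7.21 on the log2 scale (CD Genomics minus Novogene, edgeR's interaction test).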

How the results depend on the processing

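Counts of many circRNAs were low, so depth limits many single estimates. In place of 91 of 1005 circRNAs, the numbers called were 575 of 32533 without a filter (170 higher), 455 of 5953 with the filter of 3 counts in 10% of animals (149 higher), 49 of 457 with 10 counts in 6 animals (34 higher), 56 of 438 without RNase R libraries and 70 to 109 without 1 animal. With the animal number as a replicate block in place of company there were 71 (33 higher and 38 lower, so the split turned), and with DESeq2 117 and voom 131. The numbers gave no pairing (correlations of -0.04 to 0.04), and the block left 1 adjusted call. Library sizes from the tested circRNAs, an alternative chosen after seeing the data, gave 92 calls.

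Past the adjusted threshold, in place of 2, were 1 circRNA without a filter, 4 with the filter of 3 counts in 10% of animals, 0 with 10 counts in 6 animals, 0 without RNase R libraries, 1 without nv2 libraries, 10 in Novogene animals only, 9 without the 3 cd libraries, 18 with DESeq2 (158 of 1005 had no adjusted p), 5 with voom, 2 with all 4 ages in 1 fit (both lower, so circ-B was not among them), and 1 to 4 without 1 animal (1 without Novogene animals 2 or 3 of P7, CD Genomics animals 5 or 6 of P7, Novogene animal 2 or CD Genomics animal 4 of P28, and 4 without Novogene animal 3 of P28). Adjusted loci, in place of 0, numbered 7 with the filter of 3 counts in 10% of animals, 12 in Novogene and 2 in CD Genomics animals alone, 12 without the 3 cd libraries, 3 with all 4 ages in 1 fit, 7 with Novogene animal 1 of P28 kept, 3 without RNase R libraries and 0 to 2 without 1 animal (1 without Novogene animal 3 or CD Genomics animal 4, 2 without CD Genomics animal 5, all of P28). Usage calls were 0 in every fit run. The company interaction, 1 circRNA, became 2 without the 3 cd libraries and 1 to 2 without 1 animal (2 without Novogene animal 3 of P7 or CD Genomics animal 4 of P28).

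The difference in distinct circRNAs turned to 36.0 without the 3 cd libraries and ran from -344 to -138 without 1 animal. The share on abundant circRNAs turned to 1.30 points (exact permutation p = 0.01) with the 100 most abundant and ran from -0.45 to -0.07 without 1 animal. The share over 10 kb was 4.78 points (exact permutation p = 0.035) with Novogene animal 1 of P28 kept, 4.35 (exact permutation p = 0.035) without RNase R libraries and 2.78 to 5.16 without 1 animal. Genes called numbered 1681 with only the 2 ages and 576 to 734 without 1 library.

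Of 587 values of the 23 named circRNAs, 544 kept direction and side of the threshold, 29 lost the call and 3 gained one. The 11 that changed sign were circ-Q at -0.19 in CD Genomics animals and -0.054 without Novogene animal 3 of P28 (range without 1 animal -0.054 to 0.19), circ-U at 0.010 without RNase R libraries, circ-V at 0.023 in Novogene animals and 0.028 without the 3 cd libraries, and circ-W at -2.99 in Novogene animals, -0.60 without the 3 cd libraries, -0.28, -0.21 and -0.32 without CD Genomics animals 4, 5 and 6 of P7 (range without 1 animal -0.32 to 1.95), and -0.98 with voom. The cause was not tested.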
